A study of Rattus norvegicus with 12 samples.

Results

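The 9 genes described here encode the machinery that loads peptides onto MHC class I molecules. They are B2m, Tap1, Tap2, Tapbp, Psmb8, Psmb9, Psmb10, Nlrc5 and Erap1, chosen by name from the 24660 genes of the deposited count table. The choice was made with earlier results of these data known. All 9 were among the 14184 genes tested. RNA was sequenced from NRK-52E cells, an established line of rat kidney tubular epithelial cells labelled as wild type, in 12 libraries, 3 in each of 4 groups. Control cells have no agent named in the labels. TGF-beta1 cells received TGF-beta1, a cytokine that drives fibrosis, for 24 h at a dose labelled 10 µg/ml, a unit that is in doubt. The other groups received the same TGF-beta1 and then extracellular vesicles at 500000000 particles/ml for 48 h. These were 2D-EVs from conventional production in the 2D-EV cells and 3D-EVs from a more efficient production in the 3D-EV cells. The question posed was how both preparations compare in treating a fibrosis-like state. The sources used here do not give the origin of the vesicles, the harvest time of control and TGF-beta1 cells, or whether the cytokine was still present during the vesicle step. Vesicles, time and withdrawal of TGF-beta1 therefore cannot be told apart in comparisons of vesicle-treated cells with other groups.

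MHC class I molecules show peptides from inside the cell to CD8+ T cells. The proteasome cuts proteins into peptides, the TAP transporter of Tap1 and Tap2 carries them into the endoplasmic reticulum, ERAP1 trims them, and tapasin (Tapbp) helps load them onto a heavy chain paired with beta-2 microglobulin (B2m). Interferons raise most of these genes through IRF and STAT factors and through the coactivator NLRC5, and replace the standard catalytic proteasome subunits by the immunoproteasome subunits of Psmb8, Psmb9 and Psmb10. Tubular epithelial cells carry class I at rest and raise it during inflammation of the kidney.

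The promoters of 7 members were in the RefSeq table of the build GRCr8 and are described first, because several hold the letters that interferon-regulatory and NF-kappaB factors are known to read. A window ran from 250 bases before an annotated start to 50 bases after it. The stretches below lie upstream of the outermost annotated start of each gene and read 5′ to 3′ on the gene's strand. They come from chr3:129549080-129549235 (plus strand, B2m), chr20:4668544-4668793 (minus, Tap1), chr20:4652297-4652546 (minus, Tap2), chr20:4668750-4668951 (plus, Psmb9) and chr19:50743293-50743542 (minus, Psmb10). B2m, Tap1, Tap2 and Psmb10 are shown for their matches, and Psmb9 because it faces Tap1 and holds none in the stretch shown. Capitals mark a match to the core of the interferon-stimulated response element, GAAANNGAAA, or to a kappaB motif, GGGANTTTCC, on either strand.
B2m: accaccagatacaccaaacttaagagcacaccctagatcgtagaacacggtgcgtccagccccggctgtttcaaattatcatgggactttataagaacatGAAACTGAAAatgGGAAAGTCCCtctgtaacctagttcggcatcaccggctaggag
Tap1: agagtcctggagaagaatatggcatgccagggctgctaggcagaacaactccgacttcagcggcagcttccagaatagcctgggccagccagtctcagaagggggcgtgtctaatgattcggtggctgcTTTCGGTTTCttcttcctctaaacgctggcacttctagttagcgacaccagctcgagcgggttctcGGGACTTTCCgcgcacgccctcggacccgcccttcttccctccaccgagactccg
Tap2: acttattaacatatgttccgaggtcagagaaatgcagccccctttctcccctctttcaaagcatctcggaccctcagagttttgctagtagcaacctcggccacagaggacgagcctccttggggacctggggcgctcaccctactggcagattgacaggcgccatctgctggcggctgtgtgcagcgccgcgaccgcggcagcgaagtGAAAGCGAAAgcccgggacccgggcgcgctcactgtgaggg
Psmb9: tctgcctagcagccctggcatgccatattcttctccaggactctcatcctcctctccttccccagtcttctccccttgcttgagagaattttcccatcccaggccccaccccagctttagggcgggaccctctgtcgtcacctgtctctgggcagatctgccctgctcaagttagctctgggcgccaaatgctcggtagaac
Psmb10: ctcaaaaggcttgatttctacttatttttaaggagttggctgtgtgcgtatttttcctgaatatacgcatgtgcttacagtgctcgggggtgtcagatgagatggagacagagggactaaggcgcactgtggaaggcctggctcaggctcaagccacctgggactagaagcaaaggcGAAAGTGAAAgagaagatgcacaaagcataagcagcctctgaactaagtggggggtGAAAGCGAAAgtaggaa

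The interferon response core was found in the windows of 6 of the 7 members, all but Psmb9, against 3.92% of 33469 promoters of the same length. The kappaB motif was found in B2m, Tap1 and Tapbp, against 0.362% of all promoters. The B2m matches lay at -150 to -141 (interferon core) and -137 to -128 (kappaB), counted from 0 at the annotated start of its window. Tap2 held its core at -41 to -32, and Psmb10 held cores at -73 to -64 and at -17 to -8. In Tapbp a pair of overlapping cores formed the run GAAAATGAAAGTGAAA at -26 to -11, and in Psmb8 the core spanned the start itself (-4 to 5). A STAT site of the GAS type, TTCNNNGAA, was found in Psmb8 alone of the 7 (8.87% of all promoters), and a CCAAT box, searched as CCAAT, in B2m, Psmb8 and Psmb9 (37.5% of all promoters). Apart from the cores in Tapbp, no matches of these motifs overlapped in the members. The window starts of Tapbp, B2m, Psmb8 and Psmb9 lie inside the annotated genes. The Tapbp matches, the Psmb8 core and the CCAAT boxes of B2m and Psmb9 are therefore within these genes, not upstream of them. The matches describe letters only, and binding was not measured. Tap2, Psmb8, Tap1 and Psmb9 follow each other on chromosome 20 with 0 other annotated genes between them, over 36165 bases (4638257 to 4674421). Tap1 and Psmb9 point away from each other from starts 456 bases apart. The Tap1 interferon core (-121 to -112) and kappaB match (-55 to -46) lie between these starts. They are therefore upstream of Psmb9 as well, but beyond the reach of its window. The lack of a core holds for the Psmb9 window only. Tapbp lies on the same chromosome (4958821 to 4967958), Psmb10 and Nlrc5 on chromosome 19, B2m on chromosome 3 and Erap1 on chromosome 2.

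**Figure D1:**
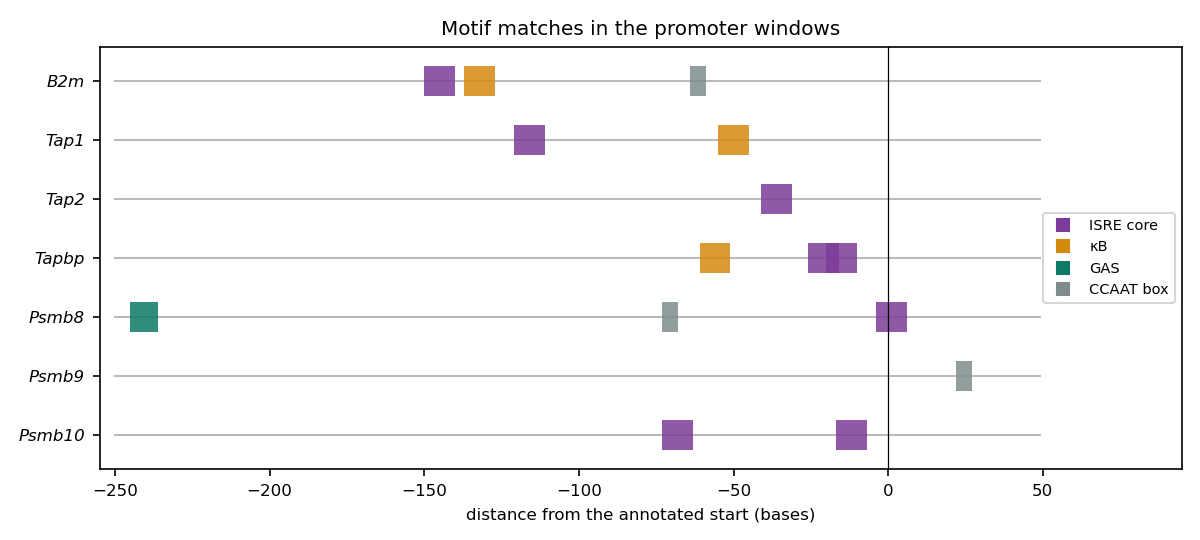
Positions of motif matches in the promoter windows of 7 members, in bases from the annotated start (0). Each grey line is 1 window of 300 bases and each block a match on either strand: interferon response core (purple), kappaB (orange), GAS (green) and CCAAT box (grey). B2m, Tap1 and Tapbp hold both an interferon core and a kappaB match, and Psmb9 has only a CCAAT box.

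Library totals ran from 32888125 to 39754319 counts, and values are given as CPM, on the scale of library totals corrected by TMM factors, where 1 count is worth 0.0255 to 0.0305. They are listed for libraries 1, 2 and 3 of a group. Since separate cultures are not stated in the labels, all p-values are set against a spread between libraries that may be technical only. In bulk RNA, fewer cells of a type and less RNA per cell cannot be told apart. Of the tubular epithelial markers, Krt8 stood at 1006 to 1251 CPM, while Epcam and Pax2 were at 0 in every library and Krt18 was at 0 in all libraries but 1. Of 15 immune markers in the table, 7, Ptprc, Itgam and Cd3d among them, were at 0 in all 12 libraries. Their summed level of 146 to 163 CPM was almost wholly Fcer1g, with 153 to 163 CPM in control, 147 to 156 in TGF-beta1, 155 to 159 in 2D-EV and 146 to 155 in 3D-EV cells. With TGF-beta1 the summed tubular markers stood higher (1188 to 1268 against 1027 to 1046 CPM), where Krt8 rose, Aqp1 fell and the other 4 tested did not pass. The fibroblast sum stood lower (696 to 715 against 741 to 788 CPM) through Col14a1 alone, since the other 3 tested had log2 differences above 0. The endothelial sum stood higher (15.6 to 16.4 against 12.9 to 13.8 CPM) through Egfl7 alone, since the other 3 tested had differences below 0. The part of these shifts in the results was not tested.

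With TGF-beta1, 2 of the 9 members fell and 0 rose: Nlrc5, the coactivator of class I genes, and Psmb10, an immunoproteasome subunit. Of all 14184 genes, 10.2% fell and 22.0% changed in either direction, so the share of members called lies near that of the genome. Calls here and below are edgeR quasi-likelihood tests with Benjamini-Hochberg adjusted p under 0.05. The fold changes of 6 members were below 0 on the log2 scale, and the median over the 9 members was -0.19, against -0.00499 over all genes. The libraries of TGF-beta1 and control cells did not overlap for 4 members (38.0% of all genes): Nlrc5 and Psmb10, which were lower, and Erap1 and B2m, which were higher. Overlap here and below was counted on TMM-scaled values only, with factors of 1.02 to 1.03 in control and 0.989 to 0.992 in TGF-beta1 cells. For Erap1 and B2m, the lowest log2 differences among 14 alternative fits were 0.0320 and 0.00296.

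**Figure D2:**
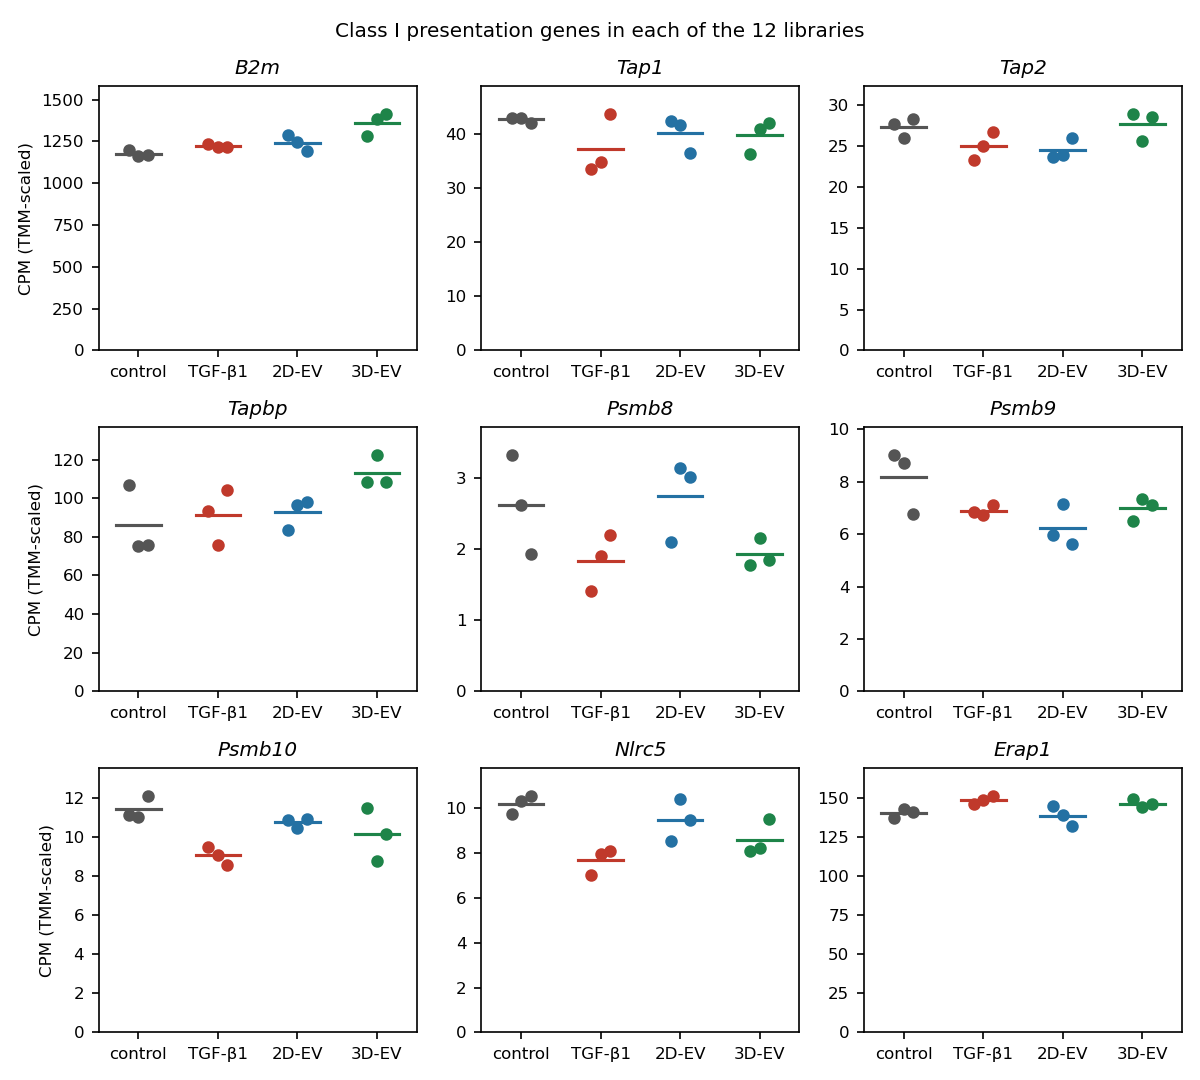
Level of each member in each of the 12 libraries, in TMM-scaled CPM on axes that start at 0. Points are libraries 1, 2 and 3 of a group from left to right and lines are group means (n = 3). The 3 TGF-beta1 libraries of Nlrc5 (7.01 to 8.08 CPM) lie below the 3 control libraries (9.75 to 10.5), and all 3D-EV libraries of B2m (1280.2 to 1411) lie above all control and TGF-beta1 libraries.

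Nlrc5, which binds no DNA itself and joins a factor complex at class I promoters, stood at 9.75, 10.3 and 10.5 CPM in control cells and at 7.01, 7.95 and 8.08 in TGF-beta1 cells. The 2D-EV libraries read 8.54, 10.4 and 9.46 CPM and the 3D-EV libraries 8.10, 8.20 and 9.49. Every TGF-beta1 library was below every control library and every 2D-EV library. The 3D-EV libraries were above the TGF-beta1 libraries too, but only just. TGF-beta1 replicate 3 stood at 8.077 CPM and 3D-EV replicate 1 at 8.097, an order not checked with other scalings. The fall with TGF-beta1 was 0.753-fold (log2 fold change -0.41, SE 0.10, edgeR adjusted p = 0.00900), and this call was kept under all 14 alternatives. Against TGF-beta1 cells, Nlrc5 was higher by 0.30 (SE 0.10) in 2D-EV cells and by 0.16 (SE 0.10) in 3D-EV cells on the log2 scale, and neither difference passed (edgeR adjusted p = 0.483 and 0.778). In order of group means, control (10.2 ± 0.403, SD, n = 3) was followed by 2D-EV (9.46 ± 0.924), 3D-EV (8.60 ± 0.778) and TGF-beta1 cells (7.68 ± 0.581). Neighbours in this order overlapped, except 3D-EV and TGF-beta1 cells by the narrow margin given above. Against control cells, 3D-EV cells were lower in every library (-0.25, SE 0.10) without passing (edgeR adjusted p = 0.0944), but passed when libraries were scaled by their totals alone (adjusted p = 0.0373).

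Psmb10 encodes the inducible subunit that takes the place of the standard subunit of Psmb7. It stood at 11.1, 11.0 and 12.1 CPM in control cells and at 9.49, 9.07 and 8.57 in TGF-beta1 cells. The 2D-EV libraries read 10.9, 10.4 and 10.9 CPM and the 3D-EV libraries 11.5, 8.74 and 10.1. The 2D-EV libraries lay between the control and the TGF-beta1 libraries without overlap on either side, while the 3D-EV libraries overlapped both. The fall with TGF-beta1 was 0.794-fold (log2 -0.33, SE 0.10, edgeR adjusted p = 0.0229). The Psmb10 call did not survive leaving out control replicate 3 (adjusted p = 0.0865), TGF-beta1 replicate 2 (0.0606) or TGF-beta1 replicate 3 (0.0842). The difference of 2D-EV from TGF-beta1 cells (0.25, SE 0.10) did not pass (edgeR adjusted p = 0.576), nor did that of 3D-EV cells (0.16, SE 0.10, adjusted p = 0.753).

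Psmb9 encodes the inducible counterpart of Psmb6. Its libraries stood at 9.01, 8.72 and 6.77 CPM in control cells and at 6.84, 6.71 and 7.12 in TGF-beta1 cells. With 2D-EVs it read 5.98, 7.16 and 5.61 CPM, and with 3D-EVs 6.52, 7.34 and 7.11. Control replicate 3 was as low as the treated libraries, so every treated group overlapped the controls. In 2D-EV cells Psmb9 fell against control (0.766-fold, log2 -0.38, SE 0.12, edgeR adjusted p = 0.0439). It was the 1 member called in that comparison (8.13% of all genes fell and 18.6% changed). The Psmb9 call was lost without control replicate 1 (adjusted p = 0.166) or 2 (0.137), without 2D-EV replicate 1 (0.118) or 3 (0.152), with limma-voom (0.0585) and with only these groups in the fit (0.0984). The difference of TGF-beta1 from control cells (-0.24, SE 0.12) did not pass (edgeR adjusted p = 0.187) but did without control replicate 3 (0.0480).

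Psmb8, the inducible counterpart of Psmb5, was the member with the fewest reads, 49 to 117 counts per library. It stood at 3.33, 2.63 and 1.93 CPM in control cells and at 1.41, 1.91 and 2.20 in TGF-beta1 cells. After 2D-EVs it was at 2.10, 3.14 and 3.02 CPM, and after 3D-EVs at 1.78, 2.16 and 1.84. All groups overlapped each other, with the highest libraries in control and 2D-EV cells. The log2 difference of TGF-beta1 from control cells was -0.51 (95% interval -1.02 to -0.00483) and did not pass (edgeR adjusted p = 0.147). In 2D-EV against TGF-beta1 cells it was 0.58 (0.07 to 1.09, edgeR adjusted p = 0.601), and in 3D-EV against 2D-EV cells -0.51 (-1.02 to -0.00806, adjusted p = 0.715). Counting error alone gives Psmb8 a coefficient of variation of 10.3% to 12.3%, against an observed 10.6% to 26.5% within groups.

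The share of inducible over standard subunits was followed as the log2 ratio of their counts in each library. Psmb10/Psmb7 stood at -3.66, -3.63 and -3.41 in control cells and at -4.05, -4.06 and -3.97 in TGF-beta1 cells. The 2D-EV libraries read -3.67, -3.72 and -3.84 and the 3D-EV libraries -3.73, -4.16 and -3.93. Each TGF-beta1 library was below each control library and each 2D-EV library. The mean difference of TGF-beta1 from control cells was -0.46 (exact two-sided permutation p = 0.1, the smallest that 3 against 3 libraries can give, and 0.3 adjusted over the 18 tests of these ratios). For Psmb8/Psmb5 the means were -5.53 ± 0.364 in control, -6.12 ± 0.391 in TGF-beta1, -5.50 ± 0.285 in 2D-EV and -6.01 ± 0.150 in 3D-EV cells (SD, n = 3). For Psmb9/Psmb6 they were -2.99 ± 0.211, -3.26 ± 0.113, -3.40 ± 0.219 and -3.29 ± 0.0544 in the same order. The lowest group mean was that of TGF-beta1 cells for Psmb10/Psmb7 and Psmb8/Psmb5 and that of 2D-EV cells for Psmb9/Psmb6. Of the 18 differences, 0 had an adjusted p under 0.3, and 3 libraries a group allow no unadjusted p below 0.1. The standard subunits were measured on their own as well. Psmb5 stood at 119 ± 2.27 CPM in control and 127 ± 5.94 in TGF-beta1 cells, and Psmb6 at 64.4 ± 1.68 and 66.2 ± 4.34. Psmb7 was at 135 ± 6.33 and 148 ± 11.5 CPM, and 0 of the 3 passed with TGF-beta1 (1 at an unadjusted p under 0.05, 0 by DESeq2 or limma-voom).

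**Figure D3:**
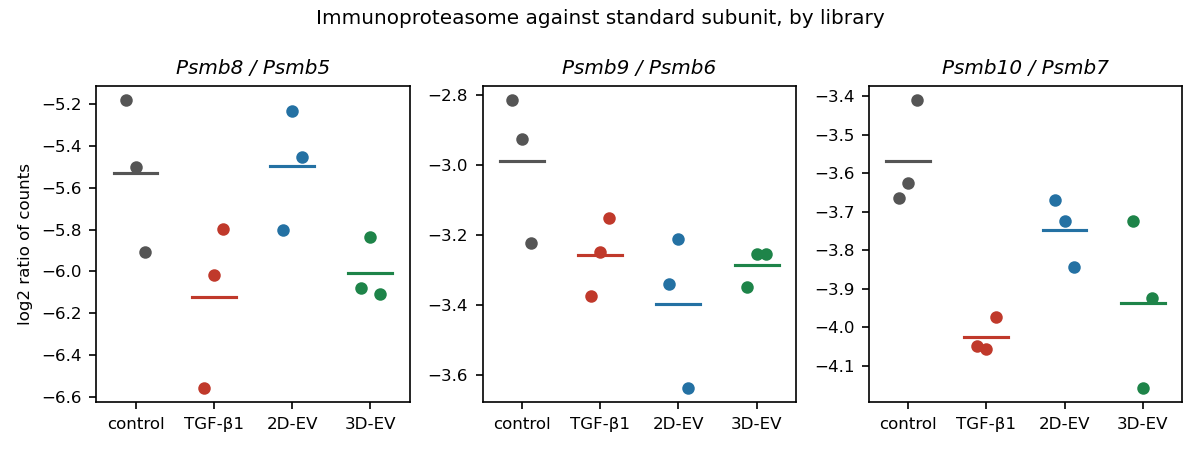
Log2 ratio of the counts of an immunoproteasome subunit to those of the standard subunit it replaces, by library, with group means as lines (n = 3). The vertical axes differ between panels and do not start at 0. For Psmb10 / Psmb7 the 3 TGF-beta1 libraries (-4.06 to -3.97) lie below the control libraries (-3.66 to -3.41).

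Tap1 and Tap2 encode the paired subunits of the peptide transporter. Tap1 stood at 43.1, 43.1 and 42.1 CPM in control cells and at 33.6, 34.8 and 43.7 in TGF-beta1 cells. Vesicle-treated libraries read 42.5, 41.8 and 36.6 CPM with 2D-EVs, and with 3D-EVs 36.4, 41.0 and 42.1. TGF-beta1 replicate 3 was the highest of all 12 libraries while the other TGF-beta1 libraries were the lowest. The log2 difference from control of -0.19 (SE 0.09) did not pass (edgeR adjusted p = 0.145), and without TGF-beta1 replicate 3 it was -0.32 and passed (0.00852). Tap2 stood at 27.8, 26.0 and 28.4 CPM in control, 23.4, 25.1 and 26.8 in TGF-beta1, 23.7, 23.9 and 26.1 in 2D-EV and 28.9, 25.6 and 28.6 in 3D-EV cells. Neighbouring groups overlapped, and the log2 differences from control were -0.13 with TGF-beta1, -0.16 with 2D-EVs and 0.018 with 3D-EVs (edgeR adjusted p = 0.230, 0.147 and 0.895). Between the vesicle groups, Tap2 differed by 0.17 (95% interval 0.024 to 0.32, edgeR adjusted p = 0.676) and Tap1 by -0.018 (-0.21 to 0.17, adjusted p = 0.983).

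Tapbp encodes tapasin, which holds empty class I molecules at the transporter. It stood at 107, 75.5 and 75.6 CPM in control cells and at 93.3, 75.7 and 104 in TGF-beta1 cells. The 2D-EV libraries read 83.7, 96.3 and 97.9 CPM and the 3D-EV libraries 108, 122 and 108. Every 3D-EV library was above every library of the other groups on TMM-scaled values. Control replicate 1 came closest (106.7 CPM, against 108.4 in the lowest 3D-EV library), and this order was not checked with library totals alone. Against control, Tapbp rose 1.31-fold in 3D-EV cells (log2 0.39, SE 0.13, edgeR adjusted p = 0.0336). That call was lost without control replicate 2 (0.136) or 3 (0.140), without 3D-EV replicate 1 (0.0536), 2 (0.128) or 3 (0.0550), with DESeq2 (0.0658) and with library totals alone (0.0616). The differences of 3D-EV from TGF-beta1 cells (0.31, SE 0.12) and from 2D-EV cells (0.29, SE 0.12) did not pass (edgeR adjusted p = 0.633 and 0.704). The coefficient of variation in control cells was 20.9%, against 1.82% from counting alone.

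Erap1, the trimming peptidase, stood at 137, 143 and 141 CPM in control, 146, 149 and 151 in TGF-beta1, 145, 139 and 132 in 2D-EV and 149, 144 and 146 in 3D-EV cells. On TMM-scaled values, all TGF-beta1 libraries were above all control and all 2D-EV libraries, an order not checked with library totals alone. The differences were small and did not pass: 0.08 (SE 0.04) with TGF-beta1 against control (edgeR adjusted p = 0.114), and -0.10 (SE 0.04) in 2D-EV against TGF-beta1 cells (0.537) on the log2 scale.

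B2m, the light chain shared by all class I molecules, stood at 1197, 1159.5 and 1169 CPM in control cells and at 1236, 1214 and 1214 in TGF-beta1 cells. The 2D-EV libraries read 1287, 1247 and 1193 CPM and the 3D-EV libraries 1280.2, 1381 and 1411. The group means were ordered control (1175 ± 19.7, SD, n = 3), TGF-beta1 (1221 ± 12.4), 2D-EV (1242 ± 47.2) and 3D-EV cells (1358 ± 68.7). The 2D-EV libraries overlapped every other group, and the 3D-EV libraries lay above all control and TGF-beta1 libraries. Against control, B2m rose 1.15-fold in 3D-EV cells (log2 0.21, SE 0.04, edgeR adjusted p = 0.000702), and this call was kept under all 14 alternatives. The differences with TGF-beta1 (0.06, SE 0.04) and in 2D-EV cells (0.08, SE 0.04) from control did not pass (edgeR adjusted p = 0.319 and 0.152). Among the alternatives, the difference with TGF-beta1 was as low as 0.00296. Against TGF-beta1 cells, 3D-EV cells were higher by 0.15 (SE 0.04), and against 2D-EV cells by 0.13 (SE 0.04). Neither passed with edgeR (adjusted p = 0.455 and 0.598), and both passed with DESeq2 (adjusted p = 0.0278 and 0.0245), whose own filter left 3578 and 1337 genes to adjust over.

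In 3D-EV cells against control, B2m and Tapbp were thus the 2 members that rose, and 0 fell, while 12.2% of all genes rose, 10.8% fell and 23.0% changed. Libraries did not overlap for 4 members (38.0% of all genes), which were B2m, Tapbp and Erap1, higher, and Nlrc5, lower. The closest libraries of 3D-EV and control cells were 108.4 against 106.7 CPM for Tapbp and 144.4 against 143.0 for Erap1. These margins were not checked with library totals alone. For the 9 members, the median log2 difference was -0.10 in 3D-EV and -0.09 in 2D-EV cells against control, against -0.00470 and -0.00195 over all genes. In 2D-EV cells the libraries of 1 member, Psmb10, did not overlap those of control cells (33.2% of all genes). The 3 comparisons with control share the control libraries, so their values stand side by side and are not independent.

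Against TGF-beta1 cells, 0 of 9 members passed in either vesicle group with edgeR. In 2D-EV cells 4 members had an unadjusted p under 0.05 (Nlrc5, Psmb8, Psmb10 and Erap1), beside 7.10% of all genes, and 0 passed with DESeq2 or limma-voom. In 3D-EV cells 2 members did (B2m and Tapbp), beside 7.24% of all genes, and 1 passed with DESeq2, B2m. Over all genes, 0.0282% were called for 2D-EV and 0% for 3D-EV cells. Libraries did not overlap for 3 members with 2D-EVs (Psmb10, Nlrc5 and Erap1, beside 12.4% of all genes) and for 3 with 3D-EVs (B2m, Tapbp and Nlrc5, beside 13.6%). Some margins were narrow on this TMM-scaled measure. The closest libraries were 8.097 against 8.077 CPM in TGF-beta1 cells for Nlrc5 with 3D-EVs, and 145.1 against 146.5 for Erap1 with 2D-EVs. Log2 differences from TGF-beta1 cells were above 0 for 6 of 9 members with 2D-EVs and for 8 of 9 with 3D-EVs, Erap1 being the exception there. Both comparisons share the TGF-beta1 libraries with each other and with the comparison to control.

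The direct comparison of the preparations, at the same labelled dose and time, called 0 of 9 members and 0.00705% of all genes. At an unadjusted p under 0.05 there were 5 members (B2m, Tap2, Tapbp, Psmb8 and Erap1), beside 6.90% of all genes, and DESeq2 called 1, B2m. Only Tapbp had libraries without overlap (11.4% of all genes). For Nlrc5 the difference of 3D-EV from 2D-EV cells was -0.14 (95% interval -0.36 to 0.08), and for Psmb10 it was -0.08 (-0.29 to 0.12).

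**Figure D4:**
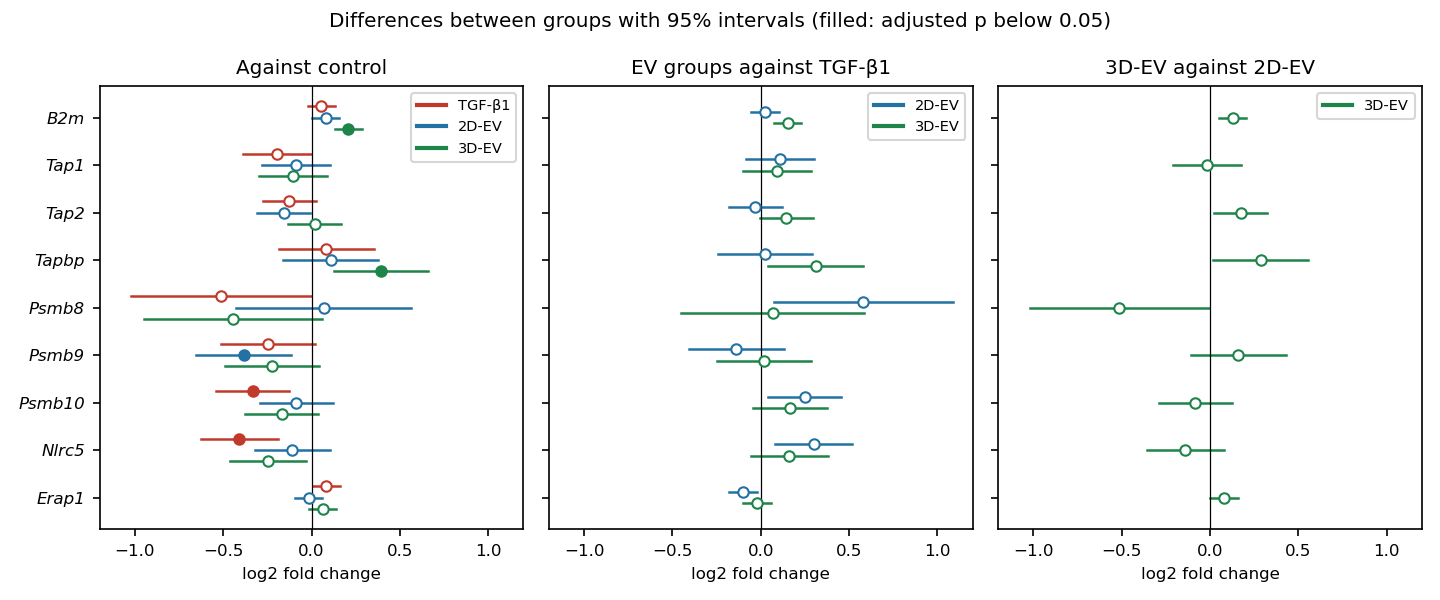
Log2 fold change of each member in the 6 comparisons, with 95% intervals from the edgeR fit. Filled points have an adjusted p under 0.05: Nlrc5 (-0.41) and Psmb10 (-0.33) with TGF-beta1, Psmb9 (-0.38) in 2D-EV cells and B2m (0.21) and Tapbp (0.39) in 3D-EV cells, each against control. All points are open in the comparisons with TGF-beta1 cells and between the preparations.

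Class I heavy chains, the RT1 genes of the rat, pair with B2m, and their near-identical copies make counts per gene uncertain. Of 38 listed, 17 were in the table and 13 were tested. This list and those below were also chosen with earlier results of these data known. Their counts beside the shares of all genes are descriptive and do not show enrichment. With TGF-beta1, 5 fell and 0 rose (RT1-T24-1, RT1-S3, RT1-M3-1, RT1-N2 and RT1-T24-4), beside 10.2% of all genes that fell, with a median log2 difference of -0.17. That count was 3 with limma-voom and with only both groups in the fit, and 2 to 3 when any 1 library was left out, RT1-T24-1 and RT1-S3 being the pair called each time. RT1-T24-1 fell from 35.4 ± 2.57 to 26.4 ± 1.54 CPM (log2 -0.42, SE 0.07, edgeR adjusted p = 0.000393), and RT1-S3 from 12.9 ± 1.40 to 8.83 ± 1.30 CPM (-0.54, SE 0.12, adjusted p = 0.00455). Both calls were kept under all alternatives. Both also fell against control with 2D-EVs (27.3 ± 1.77 and 9.34 ± 0.996 CPM) and with 3D-EVs (27.1 ± 0.871 and 8.67 ± 0.805 CPM). In all, 3 of 13 heavy chains fell with 2D-EVs, RT1-CE2 among them, and 2 of 13 with 3D-EVs, and 0 rose. Of all genes, 8.13% fell with 2D-EVs and 10.8% with 3D-EVs. In 2D-EV cells the RT1-S3 call needed control replicate 3 and 2D-EV replicate 3 (adjusted p = 0.0673 and 0.0632 without them). RT1-CE16, the heavy chain with the most counts, stood at 234 ± 9.77 CPM in control, 232 ± 4.71 in TGF-beta1, 235 ± 13.5 in 2D-EV and 234 ± 2.27 in 3D-EV cells. RT1-CE2 had 0 counts in control replicate 2 and in every 2D-EV library, and 58 to 73 counts in each of the others, an on-and-off pattern that crosses the groups. It was called lower in 2D-EV cells against control by edgeR but not by limma-voom (adjusted p = 0.124), and no fold is given.

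Of 5 other genes whose proteins pair with B2m or share the class I fold, 0 passed with TGF-beta1 (2 at an unadjusted p under 0.05, 0 by DESeq2 and 1 by limma-voom). Fcgrt, the neonatal Fc receptor, stood at 151 ± 5.05 CPM in control, 153 ± 7.52 in TGF-beta1, 152 ± 10.6 in 2D-EV and 162 ± 10.9 in 3D-EV cells. Cd1d1, which presents lipids, rose in 3D-EV cells against control (9.47 against 6.75 CPM, log2 0.49, SE 0.12, edgeR adjusted p = 0.00735) under all alternatives. Azgp1 fell there, from 12 to 15 counts per library in control to 0 to 2 in 3D-EV cells, close to the limit of counting. The Azgp1 call was lost with no filter on low counts (adjusted p = 0.0654) and without control replicate 3 (0.0561), 3D-EV replicate 1 (0.0823) or 3D-EV replicate 2 (0.0803).

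The list of loading chaperones holds general chaperones and quality-control proteins of the endoplasmic reticulum, and Sec61 subunits of its protein import channel. Its genes were called in the opposite direction to Nlrc5. With TGF-beta1, 5 of 9 tested rose and 0 fell (Calr, Hspa5, Sec61a1, Pdia3 and Ganab), beside 11.8% of all genes that rose. Calr, calreticulin, rose from 2295 ± 21.6 to 2588 ± 58.0 CPM (log2 0.17, SE 0.03, edgeR adjusted p = 0.000168). Hspa5, the chaperone BiP, rose from 2176 ± 97.7 to 2670.3 ± 106 CPM (0.30, SE 0.05, adjusted p = 0.000375). The same 5 genes were called higher in 2D-EV and in 3D-EV cells against control, where library totals alone gave 3 and 4 genes. With library totals alone, 3 rose and 1 fell with TGF-beta1, and Pdia3 and Ganab no longer passed. The calls of Calr and Hspa5 were kept throughout.

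**Figure D5:**
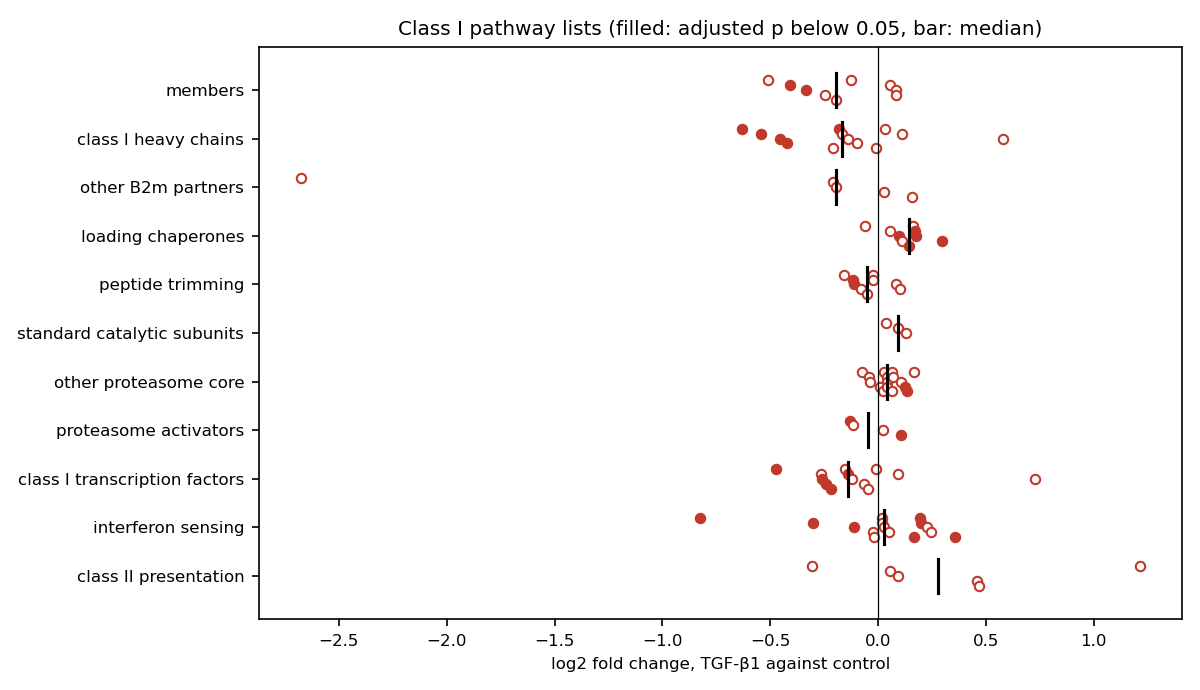
Log2 fold change of TGF-beta1 against control cells for the tested genes of each list (1 point a gene, black bars the medians). Filled points have an edgeR adjusted p under 0.05. The filled points of the heavy chains and transcription factors lie below 0 (5 and 5 genes) and those of the loading chaperones above 0 (5 genes). The open point far left is Azgp1, at 0 to 15 counts per library.

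Among 9 peptide-trimming enzymes, which include Erap1, 2 fell with TGF-beta1 (10.2% of all genes fell), Lnpep (174 to 160.5 CPM, log2 -0.11, edgeR adjusted p = 0.0252) and Npepps (205 to 189 CPM, -0.11, adjusted p = 0.0307). Each of these calls was lost when 1 of several libraries was left out. Lap3 rose in 2D-EV cells (115 to 130.2 CPM, log2 0.18, edgeR adjusted p = 0.00481) and in 3D-EV cells (126 CPM, adjusted p = 0.0233), where the call was lost with library totals alone (0.171) and without control replicate 2 (0.0582) or 3 (0.0768) or 3D-EV replicate 3 (0.115). Thop1, a cytosolic peptidase, fell in 3D-EV cells (44.5 to 39.9 CPM, adjusted p = 0.0357). The Thop1 call was lost under 7 of 14 alternatives, without control replicate 1 (0.105) or 2 (0.124) and without 3D-EV replicate 2 (0.0796) or 3 (0.131) among them.

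Of 16 other genes of the proteasome core and its assembly, 2 rose with TGF-beta1 and 0 fell, a share near the 11.8% of all genes that rose. They were Psma5 (154 to 169 CPM, log2 0.13, edgeR adjusted p = 0.0166) and Psmb3 (138 to 151 CPM, 0.13, adjusted p = 0.0338). Both calls were lost with library totals alone (0.123 and 0.201), and 0 to 1 gene was called when any 1 library was left out. Psma5 and Psmb3 were also called higher in both vesicle groups against control. Psmb7 rose in 3D-EV cells against control (154 ± 2.12 CPM, log2 0.19, edgeR adjusted p = 0.0262), a call lost with library totals (0.104), without control replicate 2 (0.0575) or 3 (0.112) and without 3D-EV replicate 1 (0.0501), 2 (0.0806) or 3 (0.0630). Of the proteasome activators, Psme1, a subunit of the interferon-inducible cap, fell with TGF-beta1 (84.3 ± 2.08 to 77.0 ± 2.14 CPM, log2 -0.13, edgeR adjusted p = 0.0152), which no longer passed when control replicate 1, control replicate 2 or TGF-beta1 replicate 2 was left out. Its partner Psme2 stood at 54.5 ± 2.79 and 50.2 ± 1.71 CPM and did not pass, and Psme3, of a nuclear cap, rose from 140.1 to 151 CPM (edgeR adjusted p = 0.0303), a call lost with library totals (0.261), without control replicate 2 (0.0973), without control replicate 3 (0.104), and without TGF-beta1 replicate 2 (0.0643) or 3 (0.112).

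The transcription factors known to act on class I promoters were lower wherever they passed in the main fit. With TGF-beta1, 5 of 13 tested fell and 0 rose (Irf1, Rfx5, Irf2, Nfyb and Nfkb1), beside 10.2% of all genes that fell. Log2 differences were below 0 for 11 of them and above 0 for 2. Irf8 stood at 1.15 to 1.65 CPM in control and 1.98 to 2.5 in TGF-beta1 cells and did not pass in the main fit. Under 1 of 14 alternatives, 1 factor was called higher. Irf1, an interferon-regulatory factor, stood at 16.9 to 19.6 CPM in control and 12.4 to 13.7 in TGF-beta1 cells, without overlap (log2 -0.47, SE 0.09, edgeR adjusted p = 0.00168). Rfx5, of the complex that recruits NLRC5, fell from 63.1 to 53.4 CPM (log2 -0.24, SE 0.06, edgeR adjusted p = 0.00573). The Irf1, Rfx5 and Irf2 calls were kept under all alternatives. Without single libraries the count with TGF-beta1 was 3 to 6, and 3 without control replicate 3. Against control, 3 of 13 fell in 2D-EV cells (8.13% of all genes fell) and 7 of 13 in 3D-EV cells (10.8%). The 2D-EV count was 1 without control replicate 1 or 3 or 2D-EV replicate 2 or 3. The 3D-EV count was 2 to 5 when any 1 library was left out, lowest without 3D-EV replicate 2, and Nfyc (lost under 9 of 14 alternatives), Nfyb (7) and Rfxap (5) were the least stable of its calls. Irf1 was at 14.7 ± 1.09 CPM in 2D-EV cells (edgeR adjusted p = 0.0303, not passing once control replicate 1 or 3, or 2D-EV replicate 2 or 3, was left out) and at 13.2 ± 1.54 in 3D-EV cells (adjusted p = 0.00214). Irf2 was at 27.6 ± 1.87 CPM in 2D-EV cells against 33.7 ± 1.73 in control (edgeR adjusted p = 0.00518).

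Of 15 tested genes for interferons, their receptors and signalling, 4 rose and 3 fell with TGF-beta1, beside 11.8% and 10.2% of all genes. The 4 were Ifnar2, Ifngr2, Tyk2 and Usp18, and the 3 were Socs3, Irf7 and Jak1. The count that rose was 1 with library totals alone or without TGF-beta1 replicate 2, and 2 when control replicate 1, control replicate 3 or TGF-beta1 replicate 3 was left out. The count that fell dropped to 1 when control replicate 2, control replicate 3, TGF-beta1 replicate 1 or TGF-beta1 replicate 2 was left out. Ifnar2, a type I interferon receptor chain, rose from 85.8 to 96.3 CPM (log2 0.17, SE 0.03, edgeR adjusted p = 0.00250), and Ifngr2, an interferon gamma receptor chain, from 30.8 to 35.2 CPM (0.19, adjusted p = 0.0176). Socs3, a feedback inhibitor of JAK and STAT signalling, fell from 57.9 to 32.7 CPM (log2 -0.83, SE 0.10, edgeR adjusted p = 3.1e-05), and Irf7 from 17.5 to 14.2 CPM (-0.30, adjusted p = 0.0206). The Ifnar2 and Socs3 calls were kept under all alternatives, while those of Ifngr2 and Irf7 were lost without 1 of several libraries. In the vesicle groups, Ifnar2 was higher and Socs3 lower than control as well (96.2 and 37.5 CPM with 2D-EVs, 96.8 and 34.8 CPM with 3D-EVs). Usp18, which dampens type I interferon signalling, rose in 2D-EV cells (15.5 to 21.0 CPM, edgeR adjusted p = 0.00787) and in 3D-EV cells (19.9 CPM, adjusted p = 0.0218). The latter Usp18 call was lost without control replicate 1 (0.0601) or 3 (0.107) and without 3D-EV replicate 1 (0.0787) or 2 (0.0507). The interferon genes Ifng, Ifnb1 and Ifnl3 were at 0 in all 12 libraries.

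Of 6 tested class II presentation genes, 0 passed with TGF-beta1 (0 at an unadjusted p under 0.05 and 0 by DESeq2 or limma-voom). RT1-DMa, which edits class II peptides, stood at 31.9 ± 2.30 CPM in control, 33.2 ± 1.64 in TGF-beta1, 35.4 ± 2.42 in 2D-EV and 34.4 ± 0.650 in 3D-EV cells. Ciita, the class II counterpart of Nlrc5, was at 0.467 ± 0.0894 CPM in control and 0.646 ± 0.0502 in TGF-beta1 cells. Against TGF-beta1 cells and between the preparations, 0 genes of any of these lists were called in any comparison by edgeR. For genes other than the members, DESeq2 calls in these comparisons were not examined list by list. The share of higher among called genes depended on scaling, with 53.6% for TGF-beta1, 56.4% for 2D-EV and 53.1% for 3D-EV cells against control, and 33.8%, 39.0% and 31.0% with library totals alone.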

How the data were processed

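Whole-number counts per gene for 12 libraries were used as the authors deposited them, without normalization. Per the submitters' processing notes, fastp, HISAT2, StringTie, DESeq2 and the build mRatBN7.2 were used. The sources used here give no versions, roles, counting settings or strand handling. Counts were fitted in R 4.3.3 with edgeR 4.0.16 (filterByExpr by group, minimum count 10, TMM factors 0.983 to 1.03, group means of all 12 libraries, quasi-likelihood F-test), with Benjamini-Hochberg adjustment over 14184 genes and a threshold of 0.05. Means are given with the SD over 3 libraries. Log2 ratios of counts had 0.5 added. The fit was tested on counts simulated from its own model, with changes planted in TGF-beta1 cells. The changes of the called members were smaller than those planted, and scaling was not varied, so the simulation does not cover these calls. DESeq2 1.42.0, limma 3.58.1 (voom), other scalings and filters, a replicate block, fits of only the groups compared and fits without each library were alternatives. Libraries with the same number were checked for pairing: over 18 pairs residual correlations were -0.0977 to 0.0885, 0 above 0.1. No strong effect shared by equal numbers was seen, which cannot exclude that they mark a shared culture or day. Over the 12 pairs of replicates within groups, chi-square per degree of freedom was 6.82 to 10.9, so none repeated another within sampling noise. No batch is labelled.

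The members and gene lists were chosen with earlier results of these data known. Beside the 9 members, named genes were, per list and comparison, up to 2 called genes that rose and 2 that fell with the smallest p, or the gene with the highest mean CPM where none was called. Irf1, Psmb5, Psmb6, Psmb7, Psme1, Psme2 and Ciita were always given, and for likeness the 5 genes closest to B2m and to the mean of the members. RT1-CE2 counts, other called members of a list and interferon genes at 0 were named after their values were seen, and for lists with 0 calls against TGF-beta1 cells not every gene is printed. RefSeq tables of another build, GRCr8, matched 16794 of 24660 names and served for names, gene order and promoter sequences, with no coordinates converted.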

Additional observations from a re-analysis of the deposited data

How the results depend on the processing

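For single members, 699 of 742 alternative values kept direction and side of the threshold, 16 lost a call, 5 gained one and 22 changed sign, and the cause was not tested. All 144 alternative values of the subunit ratios moved by less than the larger SD of the groups compared. Leaving out 1 of 3 libraries cannot move a group mean by its SD, and the replicate block leaves the difference unchanged. Only adding a larger number to the counts could have moved the ratios, so that count does not show stability. Genes called in 2D-EV against TGF-beta1 cells were 4, and 54 with DESeq2, 9 with limma-voom, 14 with no filter, 7 with only both groups fitted and 1 to 3 without single libraries. For 3D-EV against TGF-beta1 cells they were 0, 21 with DESeq2 and 0 to 2 without single libraries, with 0 members called, or 1 by DESeq2. Between the preparations they were 1, and 35 with DESeq2, 2 with limma-voom, 8 with no filter, 2 with the replicate block, 2 with only both groups fitted and 1 to 3 without single libraries, with 0 members called, or 1 by DESeq2. Members called with TGF-beta1 were 2, and 1 to 2 without single libraries. In 2D-EV cells against control they were 1, 0 with limma-voom or with only both groups fitted, and 0 to 1 without single libraries. In 3D-EV cells against control they were 2, 1 with DESeq2, and 1 to 2 without single libraries. The replicate block gave 2858 genes and the same 2 members, Nlrc5 and Psmb10, with TGF-beta1. It called 3 heavy chains there in place of 5 and changed no other call of a member. Its numbers showed no strong shared effect (the best match carried the same number for 5 of 12 libraries).

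Differences whose sign changed were small in the main fit, the largest being 0.084 for Tapbp with TGF-beta1. Some reached 0.27 when 1 library was left out. Without single libraries, log2 differences from control ranged from -0.017 to 0.072 for Tap2 in 3D-EV cells (and -0.041 with library totals alone), from -0.024 to 0.27 for Tapbp with TGF-beta1, from -0.11 to 0.27 for Psmb8 and from -0.049 to 0.017 for Erap1 in 2D-EV cells. Against TGF-beta1 cells they ranged from -0.00188 to 0.053 for B2m, from -0.080 to 0.020 for Tap2 and from -0.093 to 0.13 for Tapbp in 2D-EV cells, and from -0.092 to 0.22 for Psmb8 and from -0.017 to 0.069 for Psmb9 in 3D-EV cells. Between the preparations they ranged from -0.082 to 0.044 for Tap1 and from -0.19 to 0.012 for Psmb10.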

Other observations

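Over the 12 libraries, the genes whose log2 CPM followed B2m most closely among 9513 genes with a mean of at least 5 CPM were Ifngr1, Armcx3, Ctsl, Serpinb1a and Metap1, with Pearson r of 0.908, 0.905, 0.901, 0.884 and 0.879. These values describe 12 libraries that share depth and scaling, come from a search over many genes and carry no test. Ifngr1, a chain of the interferon gamma receptor, stood at 51.4 ± 0.713 CPM in control, 52.5 ± 0.248 in TGF-beta1, 53.4 ± 2.09 in 2D-EV and 55.8 ± 1.96 in 3D-EV cells (SD, n = 3), the order of the groups for B2m. Ctsl, the lysosomal protease cathepsin L, stood at 1704 ± 34.9, 1854 ± 49.7, 1938 ± 84.7 and 2037 ± 74.0 CPM in the same order. The genes closest to the mean of the 9 members were Arhgap39, Cryz, Parp3, Gpc4 and Hadha, with r of 0.862, 0.819, 0.813, 0.802 and 0.798. Cryz, a quinone oxidoreductase, was at 12.9 ± 1.42 CPM in control, 8.08 ± 0.969 in TGF-beta1, 9.04 ± 1.24 in 2D-EV and 9.61 ± 0.906 in 3D-EV cells.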
